A study of Rattus norvegicus with 20 samples.

Results

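The mitochondrial solute carriers are the proteins of the Slc25 family, and 37 of their genes, represented by 55 probe sets, were followed here in the right ventricle of rats with pulmonary embolism. A probe set, the unit of measurement on the array, is a set of probes for 1 transcript. Members were all probe sets whose only gene symbol was Slc25a followed by a number, with Slc25a4 and Slc25a20 left out. They came from 31042 probe sets that were no controls and 14217 genes with a single symbol. A further 3 probe sets with an Slc25a symbol were outside this rule: 2 annotated to Slc25a51 more than once, and 1 to Slc25a51l1.

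All rats were male Sprague Dawley animals of about 350 g, injected into the right jugular vein and killed 6 weeks later. PE2.0 rats received polystyrene microspheres of 25 micron at 2000000 per 100 g body weight, suspended in 0.01% Tween-20, and vehicle rats received 0.01% Tween-20 without beads. The beads lodge in the vessels of the lung and load the right ventricle. The right ventricle was cut into apex and outflow tract (base), and RNA of each piece was hybridised to 1 array, with 5 arrays in each of 4 groups (vehicle apex, PE2.0 apex, vehicle outflow and PE2.0 outflow). The titles and the treatment field separate PE2.0 from vehicle, whereas the growth field names vehicle for every array. Neither the age of the rats nor whether tissue was pooled was given in the labels.

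Most Slc25 proteins sit in the inner mitochondrial membrane and exchange substrates between the matrix and the cytosol, each for its own small set of molecules. Heart muscle, which is packed with mitochondria, depends on them to send ATP out, bring ADP and phosphate in, and carry the reducing power of cytosolic NADH inward through the malate-aspartate shuttle. Most members are made in the cytosol without a cleaved targeting sequence and enter the inner membrane through a dedicated carrier import route.

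Values are linear signals that the authors had already scaled to a common level, with array medians from 123.1 to 159.5. Cardiomyocyte markers (9 of 10 listed genes measured, none at 0) summed to 317721 to 387656 on the vehicle outflow arrays. On PE2.0 outflow arrays 1 to 5 the sum was 225499, 418504, 222048, 190112 and 166749, so 4 of the 5 lay below every vehicle outflow array and replicate 2 above them. Fibroblast markers (9 of 9 measured) summed to 172055 to 198414 on the PE2.0 outflow arrays and 68434 to 100069 on the vehicle outflow arrays. In that comparison, by the test described next, 7 of 9 cardiomyocyte markers fell and 1 (Nppa) rose, with a median log2 difference of -0.65. Of the fibroblast markers 8 of 9 rose, and of the macrophage markers 6 of 6. Smooth muscle markers rose in 4 of 5 (median 2.34) and fell in 1, cartilage-like markers rose in 4 of 4 (median 2.89), and nerve and Schwann cell markers in 3 of 3 (median 1.95). Of 5 endothelial markers 2 rose and 1 fell, 1 of 3 atrial markers rose, and 1 of 3 red cell markers fell. Nppa, the atrial natriuretic peptide made by strained heart muscle, was also the 1 marker of cardiomyocytes called in the apex. Under quantile normalization 4 of the 9 cardiomyocyte markers were called lower, and over all alternatives the count ran from 4 to 8. The ratio of 3' to 5' GAPDH probes, a measure of RNA integrity, was 1.71, 6.12, 1.7, 2.2 and 2.34 on PE2.0 outflow arrays 1 to 5 and between 1.38 and 1.83 on the other 15 arrays. The part of cell makeup and of RNA integrity in the results that follow was not tested. In these pieces of tissue, fewer cardiomyocytes and less carrier RNA per cardiomyocyte cannot be told apart.

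The first question was which carriers differed between PE2.0 and vehicle rats in the outflow tract. Most carriers that passed the test were lower after embolism. They included Slc25a11 (malate), Slc25a12 and Slc25a13 (aspartate and glutamate), Slc25a42 (coenzyme A) and Slc25a3 (phosphate). Slc25a24, which exchanges ATP-Mg for phosphate, rose. Slc25a17, which also carries coenzyme A but in the membrane of peroxisomes, rose too, with a call lost in 9 of 22 alternatives. Values were tested as log2(signal + 16) with limma's moderated test, and a probe set counts as called, here and throughout, where its Benjamini-Hochberg adjusted p over all 31042 probe sets was under 0.05. Of the 55 member probe sets, 25 fell, 3 rose and 27 were not called, and over all probe sets 14.9% were called lower and 19.6% higher. These shares depend on brightness: without the dimmest 40%, 4685 of 18625 probe sets were called lower and 5678 higher. By gene, taking the brightest probe set of each, 18 of 37 fell, 3 rose (Slc25a24, Slc25a17 and Slc25a1) and 16 were not called. Among all 14217 genes, 2553 fell and 3744 rose. Of the 11 member genes with a mean signal above 1000, 9 fell. Of the 8 with a mean below the lowest array median, 1 was called. Calls among all genes in these ranges of signal were not counted, so neither count marks the carriers out. The median log2 difference was -0.42 over the 37 genes and 0.10 over all 14217 genes. On 17 of the 55 probe sets every PE2.0 array lay below every vehicle array, and on 1 every PE2.0 array lay above; among all probe sets these shares were 9.98% and 13.4%. Centring each array on its median moved the median of all probe sets from 0.05 to -0.08 and their split from 6083 higher and 4637 lower to 4415 higher and 5966 lower. The members then stood at 1 higher and 27 lower.

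**Figure D1:**
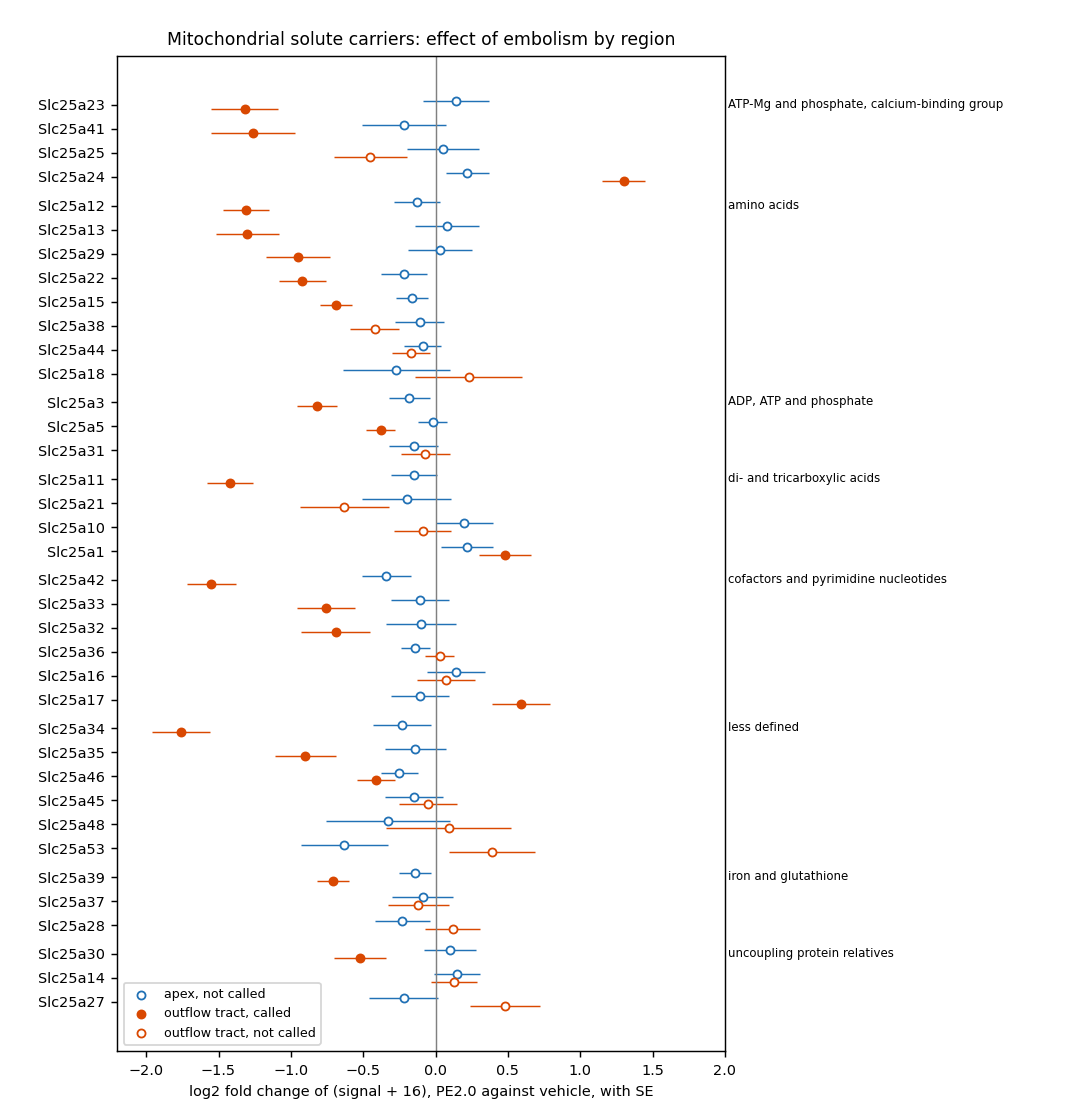
Log2 fold change of (signal + 16), PE2.0 against vehicle, for the 37 carrier genes grouped by substrate, in the apex (blue) and the outflow tract (orange); bars are the SE of the fit and filled points passed an adjusted p under 0.05. In the outflow tract 18 genes lie below 0 as filled points and 3 above, and none of the apex points is filled.

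Promoters of 4 members are printed to show the start regions of the 2 genes with the deepest falls, Slc25a34 and Slc25a42, and of 2 close relatives, Slc25a23, which fell, and Slc25a24, which rose. They are the 250 bases before the annotated start, 5′ to 3′ on the gene's own strand, from RefSeq on build GRCr8. Slc25a34 is at chr5:159219893-159220142 (minus strand), Slc25a42 at chr16:19247724-19247973 (plus), Slc25a23 at chr9:1985366-1985615 (minus) and Slc25a24 at chr2:199449175-199449424 (plus). Capitals mark GGGCGG (the GC box) and CCAAT (the CCAAT box) on either strand, so that CCGCCC and ATTGG are the same letters read from the other strand.
Slc25a34: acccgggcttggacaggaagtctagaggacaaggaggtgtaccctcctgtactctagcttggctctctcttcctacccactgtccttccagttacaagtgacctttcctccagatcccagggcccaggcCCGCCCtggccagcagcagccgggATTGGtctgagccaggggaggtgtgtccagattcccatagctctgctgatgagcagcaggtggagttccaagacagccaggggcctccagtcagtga
Slc25a42: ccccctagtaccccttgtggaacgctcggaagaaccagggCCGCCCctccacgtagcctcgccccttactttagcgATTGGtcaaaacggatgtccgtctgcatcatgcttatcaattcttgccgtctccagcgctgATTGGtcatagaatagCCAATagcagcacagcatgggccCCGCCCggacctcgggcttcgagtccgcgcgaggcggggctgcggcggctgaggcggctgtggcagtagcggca
Slc25a23: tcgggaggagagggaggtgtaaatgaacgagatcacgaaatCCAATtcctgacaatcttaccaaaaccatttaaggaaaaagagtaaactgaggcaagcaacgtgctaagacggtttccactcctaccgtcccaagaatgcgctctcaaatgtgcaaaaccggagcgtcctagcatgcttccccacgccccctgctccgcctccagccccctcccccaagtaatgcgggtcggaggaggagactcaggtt
Slc25a24: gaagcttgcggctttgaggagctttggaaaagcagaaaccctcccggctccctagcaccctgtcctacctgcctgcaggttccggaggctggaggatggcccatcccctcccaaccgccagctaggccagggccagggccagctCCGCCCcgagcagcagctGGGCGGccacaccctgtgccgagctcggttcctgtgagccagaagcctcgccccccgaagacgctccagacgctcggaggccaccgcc
The first 3, from genes that fell, each hold a CCAAT box, and the promoter of Slc25a24 holds none. This split did not extend to the other called members. In the same window Slc25a1 and Slc25a17, which also rose, hold a CCAAT box. Slc25a3, Slc25a5, Slc25a12, Slc25a22, Slc25a39 and Slc25a41, which fell, hold none.

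A promoter was found for 32 of the 37 members. On both strands, CCAAT was present in 18 of 32 member promoters (56.2%), in 35.1% of 11700 promoters of genes on the array, and in 34.3% of all 27457 promoters in the table. Among 15 members that fell it was present in 60.0%, and among all 2146 promoters of genes that fell in 36.1%. GGGCGG was present in 62.5% of member promoters, 54.2% of those of array genes and 32.4% of all. Of the other letters searched, GCATGCGC (the core of the Nrf1 site) was in 2 of 32 member promoters (6.2%), 3.9% of those of array genes and 2.4% of all. CACGTG (the E-box) was in 2 of 32 member promoters (6.2%), 7.8% of those of array genes and 5.8% of all. TCAAGGTCA, a site of oestrogen-related receptors, was in 0 of 32 member promoters, 0.2% of those of array genes and 0.4% of all. No motif searched contains another, and median GC content was 58.0% in member promoters and 52.0% in all. These counts describe letters in this window only.

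Among carriers of ADP, ATP and phosphate, 2 of 3 genes fell. Slc25a3, the phosphate carrier that supplies the ATP synthase, gave signals of 41544, 34649, 36135, 37476 and 39745 on vehicle outflow arrays 1 to 5 and 21680, 30642, 22645, 20236 and 14972 on PE2.0 outflow arrays 1 to 5. Every PE2.0 array lay below every vehicle array, with replicate 2 nearest to them. The means were 37910 ± 2760 and 22035 ± 5650 (SD, n = 5 each), a fall by 0.82 ± 0.14 (SE) on the log2 scale (limma adjusted p = 0.000126). In the apex Slc25a3 gave 40987, 35079, 38024, 36428 and 38179 in vehicle rats and 36204, 30955, 35046, 33969 and 30320 in PE2.0 rats, a log2 difference of -0.18 from overlapping arrays. Under quantile normalization the outflow difference of Slc25a3 was -0.44 and stayed called.

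Slc25a5, an ADP/ATP exchanger found in most tissues, gave 12607, 12509, 10848, 13240 and 12192 on the vehicle outflow arrays and 10466, 9199, 10002, 9241 and 8235 on the PE2.0 outflow arrays. The groups did not overlap, but the gap was narrow, between 10466 and 10848. Slc25a5 fell by 0.38 ± 0.10 on the log2 scale (1.30-fold, limma adjusted p = 0.00576). That call was lost under quantile normalization (log2 difference -0.06, adjusted p = 0.696), with the GAPDH ratio as a covariate (-0.31, adjusted p = 0.0527) and with PE2.0 outflow replicates 1 and 3 alone (-0.26, adjusted p = 0.141). In the apex Slc25a5 gave 14022, 12499, 12359, 14081 and 13191 in vehicle rats and 13436, 12320, 14398, 13825 and 11352 in PE2.0 rats, with no separation. Slc25a31, the testis-enriched ADP/ATP carrier, was dim, with means of 9.90 and 7.81 in the outflow groups, and was not called. The heart's main ADP/ATP carrier, Slc25a4, which the rule leaves out, fell by 0.70 on the log2 scale in the outflow tract (adjusted p = 0.00117).

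The malate-aspartate shuttle uses the oxoglutarate/malate carrier Slc25a11 and the calcium-stimulated aspartate/glutamate carriers Slc25a12 and Slc25a13, and all of these fell. Slc25a11 gave 8942, 9686, 9822, 9444 and 11290 on the vehicle outflow arrays and 4818, 4476, 4376, 2851 and 2452 on the PE2.0 outflow arrays. Replicates 4 and 5 of the PE2.0 rats were the lowest, and no PE2.0 array came near the vehicle range. Slc25a11 fell by 1.42 ± 0.16 on the log2 scale, 2.67-fold (limma adjusted p = 1.28e-06). In the apex the same gene gave 9084, 9005, 9144, 9327 and 10128 in vehicle rats and 9247, 8659, 7634, 8507 and 8078 in PE2.0 rats, a log2 difference of -0.15 from overlapping arrays.

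Slc25a12, known as aralar, gave 3716, 3069, 3296, 3337 and 3952 on the vehicle outflow arrays and 1841, 1903, 1448, 982 and 1027 on the PE2.0 outflow arrays. Slc25a13, known as citrin, gave 4240, 4205, 5069, 3906 and 4348 on the vehicle outflow arrays and 2231, 2734, 2355, 1169 and 966 on the PE2.0 outflow arrays. For both genes the groups were apart, and PE2.0 replicates 4 and 5 were again the lowest. Slc25a12 fell by 1.31 ± 0.16 on the log2 scale (limma adjusted p = 4.02e-06). Slc25a13 fell by 1.30 ± 0.22 (limma adjusted p = 9.36e-05), and its second probe set fell by 1.53. In the apex Slc25a12 gave 3480, 3351, 3684, 3235 and 3254 in vehicle rats against 3425, 3202, 2714, 3061 and 3207 in PE2.0 rats, with overlap. Slc25a13 in the apex gave 3999, 4046, 3833, 4587 and 4094 against 4212, 5091, 3752, 4482 and 4196, also overlapping.

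Enzymes that work with these carriers were listed beside them. All 6 measured genes of the malate-aspartate and glycerol phosphate shuttles fell in the outflow tract, with a median log2 difference of -1.19, and in limma's test of the apex 0 of 6 were called, with 0 under an unadjusted p of 0.05. Got1 and Got2, the cytosolic and mitochondrial aspartate aminotransferases, fell by 2.18 and 1.47. Mdh2 and Mdh1, the mitochondrial and cytosolic malate dehydrogenases, fell by 1.28 and 0.83.

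Other carriers of amino acids brought the count for this class to 5 fallen and 3 not called of 8 genes, with a median log2 difference of -0.81. Slc25a22, a glutamate carrier, fell by 0.92 (adjusted p = 0.000149), and Slc25a29, a carrier of basic amino acids, fell by 0.95 (adjusted p = 0.00178). Slc25a15, the ornithine carrier of the urea cycle, was measured by 6 probe sets. Its brightest set gave 717, 727, 756, 742 and 789 on the vehicle outflow arrays and 440, 436, 456, 460 and 482 on the PE2.0 outflow arrays. No PE2.0 array came near the vehicle range. The log2 differences of the 6 sets were -0.69, -0.63, -0.14, -1.01, -0.91 and -1.42, all called except that of -0.14, whose outflow means were 6.09 and 4.24. Slc25a38, the glycine carrier that feeds haem synthesis, was at -0.42 with an adjusted p of 0.0582, and passed in 10 of 22 alternatives. Slc25a44, a carrier of branched-chain amino acids, was at -0.17 and the glutamate carrier Slc25a18 at 0.23, neither called.

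Coenzyme A, folate and pyrimidine nucleotide carriers were split, with 3 of 6 genes lower, 1 higher and 2 not called. Slc25a42 exchanges coenzyme A and adenine nucleotides across the membrane, and its promoter, printed above, holds GC boxes and CCAAT boxes. It gave 900, 1036, 1031, 1170 and 1339 on the vehicle outflow arrays and 477, 438, 428, 281 and 239 on the PE2.0 outflow arrays. No PE2.0 array reached the vehicle range, and Slc25a42 fell by 1.55 ± 0.17 on the log2 scale, 2.93-fold (limma adjusted p = 9.53e-07). In the apex it gave 856, 929, 1067, 1054 and 1161 in vehicle rats and 856, 767, 761, 833 and 751 in PE2.0 rats. Those apex groups met at 856, and the log2 difference of -0.34 ± 0.17 was not called (limma adjusted p = 0.678).

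Slc25a33, a pyrimidine nucleotide carrier, fell by 0.76, and its relative Slc25a36 was at 0.03 (-0.13 on a second set) and not called. Slc25a32, the folate and FAD carrier, fell by 0.69 on its brightest probe set and was at 0.27, not called, on its other set. PE2.0 outflow replicate 2, the array with the GAPDH ratio of 6.12, stood below the other 4 for both of these genes. Without that array Slc25a32 was at -0.41 (adjusted p = 0.0603), and with the GAPDH ratio as a covariate Slc25a32 was at -0.14 and Slc25a33 at -0.36, neither called. With PE2.0 outflow replicates 1 and 3 alone they were at -0.33 and -0.53 (adjusted p = 0.298 and 0.0815). Slc25a32 was also not called without vehicle outflow replicate 2 (-0.65) or 4 (-0.62), or with only the 2 outflow groups in the fit.

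Slc25a17, a carrier of coenzyme A, FAD and related nucleotides in the membrane of peroxisomes, gave 566, 776, 974, 726 and 658 on the vehicle outflow arrays and 995, 694, 1266, 1294 and 1451 on the PE2.0 outflow arrays. PE2.0 replicate 2 lay within the vehicle range and the other 4 above it. Slc25a17 rose by 0.59 ± 0.20 on the log2 scale (limma adjusted p = 0.029). In the apex Slc25a17 gave 579, 800, 926, 689 and 911 in vehicle rats and 554, 878, 588, 853 and 740 in PE2.0 rats, fully mixed. The call was lost in 9 of 22 alternatives: without vehicle outflow replicate 1 (0.50) or 5 (0.55), without PE2.0 outflow replicate 3 (0.54), 4 (0.53) or 5 (0.49), with replicates 1 and 3 alone (0.61), under quantile normalization (0.52) or median centring (0.46), and with only the outflow groups fitted (0.59). Slc25a16, also counted with the cofactor carriers, was at 0.07 and not called.

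Close relatives that exchange ATP-Mg for phosphate moved apart from each other. These carriers have calcium-binding domains that face the space between the membranes, apart from Slc25a41, which lacks them, and they adjust the adenine nucleotide content of the matrix. Slc25a23 gave 563, 683, 690, 670 and 717 on the vehicle outflow arrays and 355, 460, 274, 157 and 151 on the PE2.0 outflow arrays. Slc25a24 gave 663, 758, 803, 837 and 480 on the vehicle outflow arrays and 1469, 1494, 1563, 2018 and 2236 on the PE2.0 outflow arrays. The groups were apart for both genes, in opposite directions, and PE2.0 replicates 4 and 5 were the lowest for Slc25a23 and the highest for Slc25a24.

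Slc25a23 fell by 1.32 ± 0.23 on the log2 scale (limma adjusted p = 0.000127). Its second probe set fell by 1.15, and its remaining, dim set, at means of 14.8 and 7.15, was at -0.43 and not called. Slc25a24 rose by 1.30 ± 0.15, 2.45-fold (limma adjusted p = 3.02e-06), which was the only rise of the 3 that kept its call in all 22 alternatives. In the apex Slc25a23 gave 581, 503, 589, 462 and 734 in vehicle rats and 619, 709, 545, 611 and 664 in PE2.0 rats, with overlap. Slc25a24 in the apex gave 718, 766, 692, 711 and 866 against 821, 736, 937, 931 and 963, also overlapping. Slc25a41, the form without the calcium-binding domain, was dim, falling from a mean of 78.2 to 25.0 with some overlap of arrays (-1.26 ± 0.29 on the log2 scale). Slc25a25 was at -0.45 and not called.

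**Figure D2:**
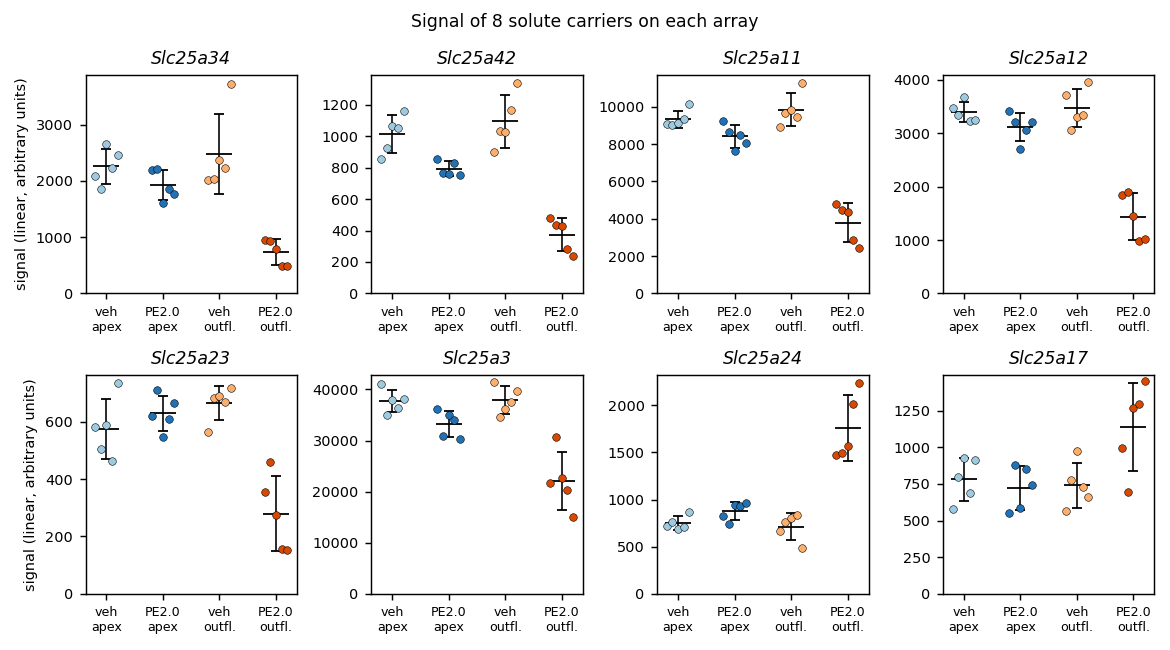
Linear signal (arbitrary units) of 8 carriers on each of the 20 arrays, by group (veh, vehicle; outfl., outflow tract), with the group mean and SD as bars and a separate scale for each gene. The PE2.0 outflow arrays lie below all other arrays for Slc25a34, Slc25a42, Slc25a11, Slc25a12 and Slc25a23, and above them for Slc25a24, while 1 PE2.0 outflow array of Slc25a17 lies within the vehicle range.

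None of the other 3 di- and tricarboxylic acid carriers was called lower beside Slc25a11. Slc25a1, which exports citrate to the cytosol where it supplies carbon for fatty acid synthesis, gave 236, 360, 205, 283 and 257 on the vehicle outflow arrays and 328, 396, 417, 396 and 341 on the PE2.0 outflow arrays. Vehicle replicate 2 lay inside the PE2.0 range. Slc25a1 rose by 0.48 ± 0.18 (limma adjusted p = 0.0454), a call that was lost in 15 of 22 alternatives, among them median centring (0.35, adjusted p = 0.148) and leaving out any of vehicle outflow replicates 1, 3, 4 and 5 (0.44, 0.40, 0.50 and 0.47) or PE2.0 outflow replicates 2, 3, 4 and 5 (0.46, 0.44, 0.46 and 0.51). In the apex Slc25a1 gave 257, 272, 165, 132 and 226 in vehicle rats and 308, 226, 253, 208 and 213 in PE2.0 rats, overlapping. Slc25a10, the dicarboxylate carrier, was at -0.09 (0.44 on a second set) and Slc25a21, the oxodicarboxylate carrier, at -0.63, neither called.

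Of 10 measured genes for citrate use and fatty acid synthesis, 5 rose and 3 fell in the outflow tract. Fasn, the fatty acid synthase, rose by 1.60, and Scd, a fatty acid desaturase, rose by 2.81. Acacb, which makes the malonyl-CoA that restrains fatty acid entry into mitochondria, fell by 2.16, and the malic enzyme Me1 fell by 0.96. Fat cell markers summed to 10212 to 16676 on the PE2.0 outflow arrays and 18620 to 24831 on the vehicle outflow arrays, with 3 of 6 higher and 2 lower by the test. The lower sum came from Fabp4 and Cidea, the 2 brightest of the list, which fell by 0.71 and 1.70. Adipoq, Plin1 and Cidec, which mark fat cells more narrowly, rose by 3.15, 3.45 and 3.32 from mean signals of 70.6, 43.4 and 11.4 to 818, 576 and 283. Lep, the remaining marker of the list, did not rise. It was dim, with means of 8.36 in vehicle and 4.87 in PE2.0 outflow, and was at -0.16, not called. The part of fat cells in these values was not tested.

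Slc25a34 and Slc25a35, whose substrates in mammals are less well defined, both fell. Slc25a34 had the deepest fall of the 37 genes. It gave 2017, 2033, 2375, 2238 and 3730 on the vehicle outflow arrays and 952, 935, 790, 492 and 491 on the PE2.0 outflow arrays. Vehicle replicate 5 was high and PE2.0 replicates 4 and 5 low, and the groups were apart with or without them. Slc25a34 fell by 1.76 ± 0.20 on the log2 scale, 3.38-fold (limma adjusted p = 2.36e-06), and the difference ranged from -1.89 to -1.46 over 22 alternatives. In the apex it gave 2085, 1854, 2658, 2232 and 2460 in vehicle rats and 2187, 2207, 1604, 1862 and 1762 in PE2.0 rats, which overlapped at a log2 difference of -0.23.

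Slc25a35 fell by 0.90 (adjusted p = 0.00233). Slc25a46, an outer membrane protein tied to mitochondrial shape rather than to transport, gave 3092, 3137, 3005, 3033 and 2038 on the vehicle outflow arrays and 2102, 2539, 2047, 2044 and 1910 on the PE2.0 outflow arrays. Vehicle replicate 5 lay among the PE2.0 arrays. Slc25a46 fell by 0.41 ± 0.13 (limma adjusted p = 0.0193), and the call was lost without vehicle outflow replicate 2 or PE2.0 outflow replicate 5 (both -0.38), with PE2.0 outflow replicates 1 and 3 alone (-0.44) and with only the outflow groups fitted. Its second probe set was at -0.52 and not called (limma adjusted p = 0.0728). In the apex the brightest set gave 3128, 3155, 3702, 3089 and 3251 in vehicle rats and 2725, 3183, 2226, 2740 and 2939 in PE2.0 rats, with overlap. Slc25a45, Slc25a48 and Slc25a53 were at -0.05, 0.09 and 0.39, none called, and a second set of Slc25a48 was at -0.20.

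Iron and glutathione carriers gave 1 fall among 3 genes. Slc25a39, which carries glutathione into mitochondria, gave 3698, 3586, 3575, 3889 and 4734 on the vehicle outflow arrays and 2668, 2564, 2421, 2184 and 2038 on the PE2.0 outflow arrays. All PE2.0 arrays lay below all vehicle arrays. Slc25a39 fell by 0.71 ± 0.11 (limma adjusted p = 3.02e-05), and a second, dimmer probe set was at 0.01 and not called. In the apex it gave 3526, 3611, 3814, 4073 and 3673 in vehicle rats and 3714, 3395, 3329, 3325 and 3225 in PE2.0 rats, with overlap through PE2.0 replicate 1. The iron importers Slc25a37 and Slc25a28, known as mitoferrins, were at -0.12 and 0.12, neither called. Of 11 measured enzymes of haem and iron-sulphur cluster synthesis, 7 fell and 0 rose, among them Glrx5 (-1.07), Nfs1 (-1.11), Alas1 (-1.57) and Fech (-0.77). Cpox (-0.58) lost its call in 6 of 22 alternatives.

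Relatives of the uncoupling proteins showed 1 fall among 3 genes. Slc25a30 fell by 0.52 ± 0.18 (limma adjusted p = 0.0268) on its brightest probe set and by 0.88 on its other set. For the brightest set the call was lost in 9 of 22 alternatives. Without PE2.0 outflow replicate 2 the difference was -0.40 (adjusted p = 0.0726), with PE2.0 outflow replicates 1 and 3 alone it was -0.09, and with the GAPDH ratio as a covariate it was -0.20. It was also lost without vehicle outflow replicate 4 (-0.51) or 5 (-0.50), and without PE2.0 outflow replicate 4 (-0.49) or 5 (-0.46). Slc25a14 and Slc25a27 were at 0.13 and 0.48, neither called. The uncoupling protein Ucp3, which carries a name outside the rule, fell by 1.72 (adjusted p = 0.000257), and Ucp2 was at -0.32 and not called.

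The PE2.0 outflow arrays differed among themselves. Of the 18 genes that fell, PE2.0 outflow replicate 5 was the lowest array in 11 and replicate 2 the highest in 9. Over these 18 genes the median log2 distance from the vehicle outflow mean was -0.83, -0.63, -0.78, -0.91 and -1.34 on PE2.0 arrays 1 to 5. Replicates 4 and 5 also had the lowest cardiomyocyte marker sums, 190112 and 166749, and the 3' to 5' GAPDH ratios of 2.2 and 2.34. Replicate 2, with the GAPDH ratio of 6.12, had the highest cardiomyocyte sum. With PE2.0 outflow replicates 1 and 3 alone, the pair whose GAPDH ratios of 1.71 and 1.7 lay within the range of the other 15 arrays, 19 member probe sets were called in place of 28. With the GAPDH ratio as a covariate, 23 were called.

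**Figure D3:**
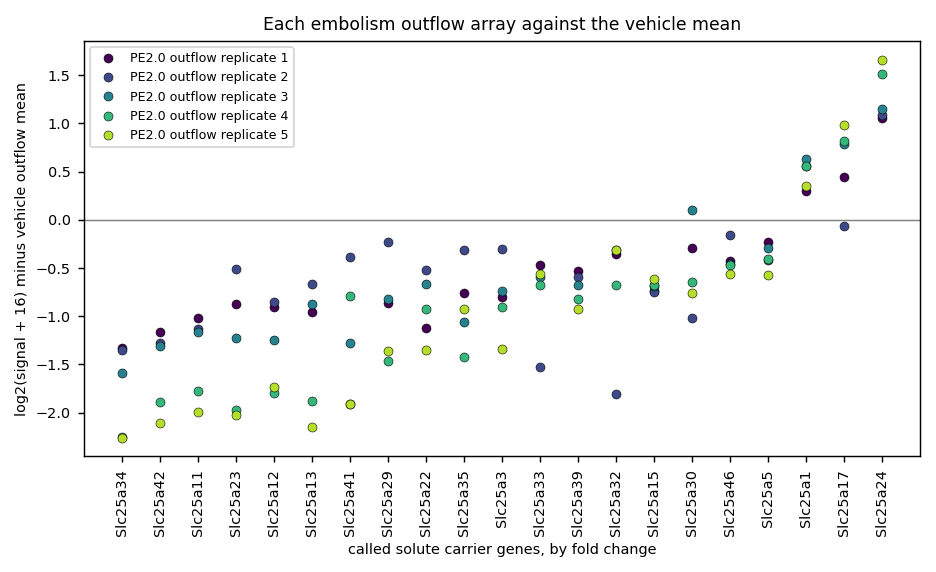
Log2(signal + 16) of each PE2.0 outflow array minus the vehicle outflow mean, for the 21 called carrier genes in order of fold change; each colour is 1 array. Replicates 4 and 5 lie lowest for most of the genes with deep falls, replicate 2 lies apart at the bottom for Slc25a33 and Slc25a32, and all 5 arrays lie above 0 for Slc25a24.

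In the apex the same question gave no call. Of 55 member probe sets 0 passed, against 0.0129% of all probe sets in either direction, and 2 were under an unadjusted p of 0.05 in limma's test, both lower and both of Slc25a15, against 7.47% of all probe sets at that threshold. Its probe set with the strongest of these differences gave 779, 767, 718, 852 and 720 in vehicle rats and 566, 616, 462, 623 and 587 in PE2.0 rats. Every PE2.0 array lay below every vehicle array there, at a log2 difference of -0.42, which held for 1 of 55 member probe sets and, in either direction, for 3.06% of all probe sets. The median over the 37 genes was -0.14, with 27 of them below 0, and the median over all genes was 0.0. Cardiomyocyte markers summed to 293311 to 340721 in the PE2.0 apex and 324224 to 373937 in the vehicle apex, with overlap. Fibroblast markers summed to 93248 to 119771 against 83030 to 92415, and macrophage markers to 5381 to 7140 against 3528 to 4496, both without overlap. Nerve and Schwann cell markers, at 494 to 689 against 278 to 391, did not overlap either. The part of these cells in the apex values was not tested.

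Whether the effect of embolism differed between the regions was tested directly, as the outflow effect minus the apex effect. It differed for 17 of 55 member probe sets, 16 lower and 1 higher, against 8.09% of all probe sets lower and 9.84% higher. By gene, 11 were lower and 1, Slc25a24, was higher (1.08 ± 0.22, adjusted p = 0.00249). Among all 14217 genes, 1449 were lower and 2003 higher. The difference was -1.53 ± 0.29 for Slc25a34, -1.46 ± 0.32 for Slc25a23, -1.38 ± 0.31 for Slc25a13, -1.27 ± 0.22 for Slc25a11, -1.21 ± 0.23 for Slc25a42 and -1.18 ± 0.23 for Slc25a12, with adjusted p between 0.000995 and 0.00457. Slc25a29 (-0.97), Slc25a22 (-0.69), Slc25a3 (-0.63), Slc25a39 (-0.57) and Slc25a15 (-0.53) completed the list. The call of Slc25a3 was lost without vehicle apex 2, vehicle outflow 1 or 5, PE2.0 apex 1, 3 or 4, or PE2.0 outflow 4 (-0.63 to -0.60). That of Slc25a22 was lost without vehicle apex 1, 2 or 5, vehicle outflow 3, 4 or 5, PE2.0 apex 1 or 3, or PE2.0 outflow 1, 4 or 5 (-0.70 to -0.59). That of Slc25a29 was lost without vehicle apex 1 or 4, vehicle outflow 5, PE2.0 apex 1, 2 or 5, or PE2.0 outflow 4 or 5 (-0.95 to -0.81). With PE2.0 outflow replicates 1 and 3 alone, Slc25a15, Slc25a22, Slc25a29 and Slc25a39 were not called for the difference (-0.56, -0.67, -0.87 and -0.47). Slc25a17 and Slc25a1, called as higher in the outflow tract, were at 0.70 and 0.26 and were not called for the difference. Slc25a17 passed without PE2.0 outflow replicate 2 (0.87, limma adjusted p = 0.0184) and with array weights (0.81, adjusted p = 0.0266). Slc25a35 (-0.77) and Slc25a41 (-1.04), not called for the difference, each passed in 6 alternatives, and Slc25a5 (-0.36) and Slc25a30 (-0.62) each in 2. Among those that leave out 1 array, Slc25a35 passed without PE2.0 apex 3 or PE2.0 outflow 2, Slc25a41 without vehicle outflow 1 or PE2.0 outflow 2, and Slc25a30 without PE2.0 outflow 3. The count of 17 fell to 10 with PE2.0 outflow replicates 1 and 3 alone and to 11 without vehicle outflow replicate 5.

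Between the regions of the same treatment, vehicle rats showed no called member. The count was 0 of 55, as it was for all probe sets (0%), and 0 members were under an unadjusted p of 0.05 in limma's test. In PE2.0 rats 24 member probe sets were lower and 3 higher in the outflow tract than in the apex, against 12.7% and 16% of all probe sets. By gene, 18 were lower and 3 higher: Slc25a24 by 0.97, Slc25a17 by 0.63 and Slc25a1 by 0.61. Among all 14217 genes, 2207 were lower and 3166 higher. Slc25a34 was lower by a log2 difference of -1.42 and Slc25a13 by -1.30. This comparison shares the PE2.0 outflow arrays with the tests above, so it is no separate evidence. With PE2.0 outflow replicates 1 and 3 alone its count was 14 in place of 27.

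Family members outside the rule and the machinery around the carriers were described by the same fit. Of the 7 such family members, 4 fell and 3 were not called. Slc25a20, the carnitine/acylcarnitine carrier, fell by 1.82 in the outflow tract, and Mtch2, an outer membrane relative of the family, fell by 1.02. Mtch1, the close relative of Mtch2, was at 0.08 and Ucp1, the uncoupling protein of brown fat, at 0.12, neither called. The ATP synthase, which uses what Slc25a3 and the ADP/ATP exchangers bring in, fell in 14 of 14 measured genes with a median of -0.94 and a range of -1.50 to -0.54. The 4 with the smallest p were Atp5pb (-1.0), Atp5f1a (-1.18), Atp5f1d (-1.50) and Atp5mg (-0.91). Of the outer membrane channels, Vdac1, Vdac2 and Vdac3, the pores for metabolites on their way to the carriers, fell by 1.16, 0.94 and 0.98, and Tspo was at 0.01 and not called. The pyruvate carrier subunits Mpc1 and Mpc2, which belong to another family, fell by 1.10 and 1.13. In the list of other inner membrane carriers that holds them, 7 of 17 fell and 4 rose, among the latter Slc8b1, a sodium/calcium exchanger, by 1.11 and Sfxn3, a sideroflexin, by 0.90.

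Of the import route that places carriers in the inner membrane, 12 of 15 measured genes fell and 0 rose, with a median of -0.50. Timm10, a chaperone of the space between the membranes, fell by 0.99, the outer membrane receptor Tomm22 by 0.65 and the outer membrane pore Tomm40 by 1.06. Timm8a1, another small chaperone, fell by 0.83. Timm22, Timm9 and Tomm7 of the same route were at -0.18, -0.22 and -0.09, none called. The presequence route into the matrix had 10 of 11 genes lower, with a median of -1.09, among them Grpel1 (-1.32), Hspa9 (-1.27), Timm17a (-1.28) and Pmpcb (-1.18). Single genes of these counts were near the threshold. Tomm6 of the carrier route (-0.24) lost its call in 11 of 22 alternatives and Timm17b of the presequence route (-0.43) in 12, while Pmpca, not called, passed in 9. The counts of fallen genes ran from 11 to 12 and from 9 to 11.

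Lists tied to the cofactor and amino acid carriers were mixed. Of 7 measured genes of coenzyme A synthesis and the Pank family, 3 fell and 1 rose. Pank1, a pantothenate kinase at the first step of coenzyme A synthesis, was at -1.48, its relative Pank4 at -1.02 and Ppcs, of a later step, at -0.82, while the kinase Pank3 rose by 0.89. Of 13 mitochondrial enzymes of proline, arginine and one-carbon metabolism, 3 rose and 4 fell. Mthfd2, of mitochondrial folate metabolism, rose by 2.76, Aldh1l2, which oxidises formyl-folate, by 1.79 and Aldh18a1, which starts proline synthesis, by 1.10, while Gcsh, of glycine cleavage, fell by 0.79. In the apex, by limma's adjusted test, 0 genes of these 11 lists were called, with 3 higher and 8 lower at an unadjusted p under 0.05.

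**Figure D4:**
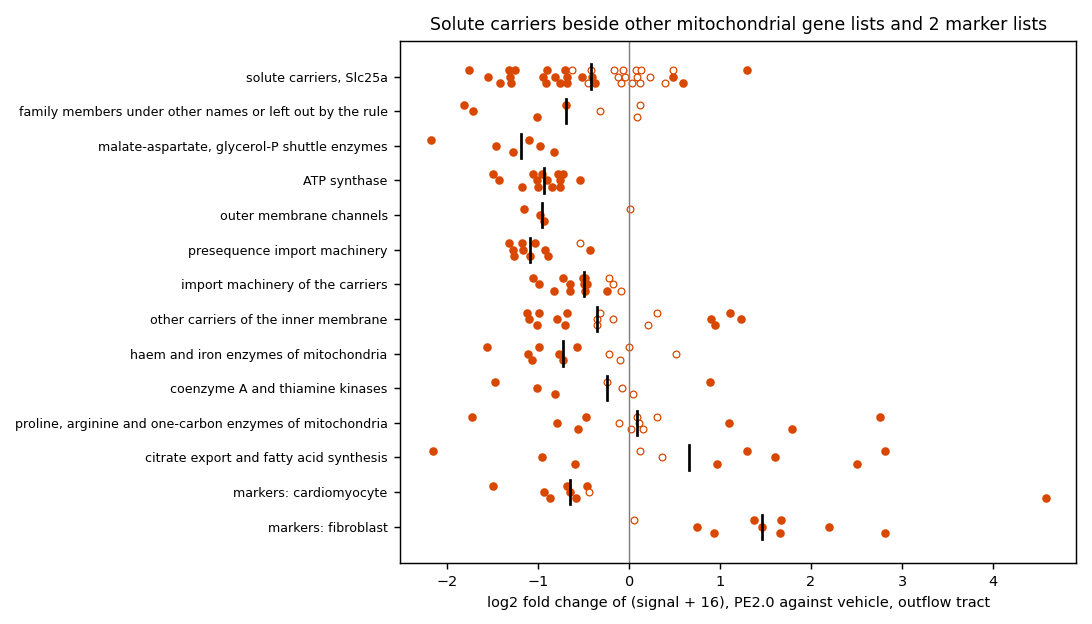
Log2 fold change of (signal + 16), PE2.0 against vehicle in the outflow tract, for each gene of the solute carriers, of 11 other gene lists and of 2 marker lists; filled points passed an adjusted p under 0.05 and black lines are medians. The carriers' median of -0.42 lies above those of the shuttle enzymes (-1.19), the ATP synthase (-0.94) and the cardiomyocyte markers (-0.65). The lists differ in brightness. Of the 37 carriers, 8 had a mean signal below the lowest array median, where this scale understates fold changes. The fibroblast markers' median is 1.46.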

How the data were processed

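RNA of 20 pieces of right ventricle was measured on Affymetrix arrays, 1 per piece. Per the labels, the authors deposited 1 linear signal intensity for each probe set and array. Which software made the signals is not given in the sources used here. Trimmed of 2% of values at either end, each array averaged 500.2, so the authors' values were already scaled. The 57 control probe sets were left out of the tests. The platform annotation gave 1 symbol for 20826 of 31042 probe sets, several for 436 and none for 9780. All 55 member probe sets matched the current RefSeq gene table, which updated 0 symbols.

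Signals were transformed as log2(signal + 16) and fitted as 4 group means over 20 arrays with limma 3.58.1 (eBayes) in R 4.3.3. Tests were two-sided, with Benjamini-Hochberg adjustment over 31042 probe sets and calls at an adjusted p under 0.05. A fold change on this scale understates that of dim probe sets. The script was checked on simulated data. The members and gene lists were chosen with earlier results of these data known. The brightest probe set stands for a gene, and its other sets are named where their call or direction in the outflow tract differs. Values of every array are given for the 8 brightest genes, the called rises and the 6 deepest falls in the outflow tract; up to 4 genes of each list with the smallest outflow p are named, others being chosen after their values were seen.

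The titles call the arrays of a group biological replicates. Deviations of same-numbered arrays correlated at 0.181 to 0.283 between the regions of 1 treatment, each number being closest to itself in 5 of 5, so a number was read as 1 rat within a treatment. Between treatments the correlations ran from -0.283 to 0.154, and numbers were not paired. Alternatives were quantile normalization, median centring, 1 or 64 in place of 16, leaving out the dimmest 40%, fitting only the groups compared, array weights, eBayes with trend and robust options, replicate blocks, the GAPDH ratio as a covariate, PE2.0 outflow replicates 1 and 3 alone, and leaving out each array. The number of arrays limits the precision.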

Additional observations from a re-analysis of the deposited data

Results flagged for a closer look

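In 13 of 148 groups of 5 arrays tested, 1 array of a carrier stood apart from the other 4 by Dixon's criterion, where chance gives about 1 in 20. In the vehicle outflow group, Slc25a34 was high at 3730 on replicate 5 (others 2017 to 2375) and Slc25a31 at 26.4 on replicate 2 (4.74 to 6.92). In the same group Slc25a46 was low at 2038 on replicate 5 (3005 to 3137), Slc25a23 at 563 on replicate 1 (670 to 717) and Slc25a30 at 1427 on replicate 1 (1694 to 1763). In the PE2.0 outflow group, replicate 2 was low for Slc25a32 at 30.9 (86.9 to 116) and for Slc25a33 at 94.2 (183 to 214), and replicate 1 was low for Slc25a18 at 14.7 (51.7 to 58.2). In the vehicle apex, Slc25a25 was low at 222 on replicate 1 (349 to 407), Slc25a44 high at 493 on replicate 5 (355 to 374) and Slc25a46 high at 3702 on replicate 3 (3089 to 3251). In the PE2.0 apex, Slc25a16 was low at 407 on replicate 1 (496 to 538) and Slc25a30 high at 2369 on replicate 3 (1579 to 1758).

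The effect of embolism differed between the regions, by limma's test of the difference, for 12 carrier genes. Among all 14217 genes, 1449 were called lower and 2003 higher by that test. The outflow effect minus the apex effect on the log2 scale was -1.53 for Slc25a34 (adjusted p = 0.0016), -1.46 for Slc25a23 (0.00408), -1.38 for Slc25a13 (0.00457), -1.27 for Slc25a11 (0.000995), -1.21 for Slc25a42 (0.00183) and -1.18 for Slc25a12 (0.00174). It was -0.97 for Slc25a29 (0.0323), -0.69 for Slc25a22 (0.0393), -0.63 for Slc25a3 (0.0315), -0.57 for Slc25a39 (0.012), -0.53 for Slc25a15 (0.0233) and 1.08 for Slc25a24 (0.00249). The part of cell makeup and RNA integrity in these differences was not tested.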

How the results depend on the processing

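Of the 21 carrier genes called in the outflow tract, 14 kept the call in every alternative that tested them (22, or 21 for Slc25a41), and none of the 21 changed direction in any of them. The genes that lost it are given beside their values. The 28 called probe sets became 19 with PE2.0 outflow replicates 1 and 3 alone and 24 to 30 when 1 array was left out. The 17 called for the difference between regions became 10 with those replicates alone and 11 to 19 with 1 array left out. The 27 called between the regions of PE2.0 rats became 14 and 22 to 28. The cause of these shifts beyond the smaller number of arrays was not tested. Counts in the apex and between vehicle regions were 0 in every alternative run. Of the carriers, 8 had a mean signal below the lowest array median, where small differences cannot be resolved, and 1 of these, Slc25a41, was called.

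With the replicate block, the rat as a random block gave 28 called probe sets in the outflow tract, 17 for the difference, 27 between PE2.0 regions and 0 for the other comparisons. With the replicate number as a fixed term the counts were 27, 16, 27 and 0. That term also ties equal numbers of the different treatments, which were not paired, so it does not follow the rats alone. The block moved no count of calls by over 1.5 times.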
